A study of Homo sapiens with 12 samples.

Results

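Long intergenic non-coding RNAs named LINC and a number were examined in PANC-1 cells exposed to chaetocin, MLN8237 or both. Members were chosen by name, LINC followed by digits alone, and selected on a summed count of at least 60 over the 12 libraries. Such a name was carried by 614 of the 57773 genes counted. Of these 189 were members and 425 summed to under 60, among them 205 with no count in any library. Because measured counts chose the members, their levels are a description. The members just inside the limit were LINC01013 (62 counts), LINC00618 (64) and LINC01109 (65), and those just outside were LINC00623 (59), LINC00505 (58) and LINC00672 (57). The general low-count filter kept 180 members for testing and left out 9. A gene that is silent in vehicle could become a member only through a group in which it was expressed, and 5 members had no vehicle count.

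Long non-coding RNAs are transcribed by RNA polymerase II and often spliced and polyadenylated, but lack a long conserved reading frame. Many are found in few cell types and at low level, and their genes lie in chromatin that can carry the repressive histone H3 lysine 9 methyl mark. Chaetocin is a fungal epidithiodiketopiperazine described as an inhibitor of the H3 lysine 9 methyltransferase SUV39H1, which also reacts with thiols and inhibits thioredoxin reductase. MLN8237 (alisertib) inhibits Aurora kinase A, which builds the mitotic spindle.

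PANC-1 is an established line from a human pancreatic ductal carcinoma, below passage 30 here. All 4 groups were kept for 24 h and differed in treatment alone: DMSO vehicle, 30 nM chaetocin, 90 nM MLN8237, or 30 nM chaetocin with 90 nM MLN8237, with 3 libraries each. The combination labels spell the second compound MLN3237, which was read as MLN8237. One line is 1 genetic background. Nothing in the labels says that libraries of a group came from separate cultures. P-values therefore reflect only how these libraries vary, which may be technical. RNA came from whole cultures, where fewer cells of a type and less RNA per cell cannot be told apart.

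Summed gene counts were 49439795 to 63747510 per library. Of the markers of this line KRT8, KRT18, KRT19 and VIM were abundant and KRT7 was low (3.49 to 4.86 CPM in vehicle, CPM being counts scaled to library size). PRSS1, CPA1, INS, GCG, PTPRC, CD3E, CDH5, VWF and DCN, which mark acinar, endocrine, immune, endothelial and stromal cells, had no count in vehicle, while CD68 (153 to 179 CPM) and COL1A1 (61.5 to 78.8 CPM) were detected. The acinar marker CEL (0.519 to 0.912 CPM), the endocrine marker CHGA (0.0179 to 0.073 CPM) and the fibroblast markers COL3A1 (0.608 to 1.71 CPM) and PDGFRB (0.461 to 0.675 CPM) were detected at low level. In a principal component analysis of all tested genes, component 1 (59.9% of variance) separated the 6 libraries with chaetocin from the 6 without. Combination replicate 2 lay at 50.8 on it, against 95.3 and 89 for the other combination libraries. Component 2 (14.6%) set MLN8237 replicate 3 apart at -82.7, and the libraries numbered 3 of chaetocin (-32.2) and the combination (-28.1) lay on the same side. Counts of members are therefore also given without those 3 libraries.

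Promoter sequence differed between members, and 5 windows are shown because they belong to a pair of members that rose with chaetocin, LINC00862 and LINC00659, a pair that fell, LINC00173 and LINC00261, and the most abundant member, LINC00657, now named NORAD. Each runs 5′ to 3′ from 250 bases before to 50 after the RefSeq transcription start, in build GRCh38.p14. CG pairs, the site of DNA methylation, are in capitals.
LINC00862 chr1:200373743-200374042 (minus strand): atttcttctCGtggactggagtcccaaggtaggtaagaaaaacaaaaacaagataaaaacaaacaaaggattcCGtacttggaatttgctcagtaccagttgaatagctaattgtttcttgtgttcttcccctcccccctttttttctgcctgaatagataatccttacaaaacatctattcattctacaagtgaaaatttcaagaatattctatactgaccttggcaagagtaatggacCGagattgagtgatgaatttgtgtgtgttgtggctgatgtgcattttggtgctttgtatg
LINC00659 chr20:62776807-62777106 (minus strand): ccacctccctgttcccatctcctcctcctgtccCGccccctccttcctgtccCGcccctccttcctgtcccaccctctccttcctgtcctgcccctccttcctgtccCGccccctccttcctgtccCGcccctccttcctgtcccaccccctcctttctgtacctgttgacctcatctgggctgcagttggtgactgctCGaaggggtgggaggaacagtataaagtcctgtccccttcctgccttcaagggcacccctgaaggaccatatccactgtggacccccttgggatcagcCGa
LINC00173 chr12:116533172-116533471 (plus strand): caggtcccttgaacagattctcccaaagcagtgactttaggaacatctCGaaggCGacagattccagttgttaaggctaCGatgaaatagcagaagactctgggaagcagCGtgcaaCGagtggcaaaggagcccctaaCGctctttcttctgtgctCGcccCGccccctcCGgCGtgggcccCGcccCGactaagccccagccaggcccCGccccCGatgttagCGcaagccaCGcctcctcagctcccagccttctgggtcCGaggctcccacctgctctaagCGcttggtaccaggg
LINC00261 chr20:22578593-22578892 (minus strand): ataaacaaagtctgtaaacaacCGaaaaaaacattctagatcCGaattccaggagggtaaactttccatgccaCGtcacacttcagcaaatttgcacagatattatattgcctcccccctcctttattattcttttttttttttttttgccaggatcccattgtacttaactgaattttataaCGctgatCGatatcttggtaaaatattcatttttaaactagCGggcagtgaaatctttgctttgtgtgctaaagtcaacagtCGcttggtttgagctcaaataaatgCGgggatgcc
LINC00657 chr20:36050911-36051210 (minus strand): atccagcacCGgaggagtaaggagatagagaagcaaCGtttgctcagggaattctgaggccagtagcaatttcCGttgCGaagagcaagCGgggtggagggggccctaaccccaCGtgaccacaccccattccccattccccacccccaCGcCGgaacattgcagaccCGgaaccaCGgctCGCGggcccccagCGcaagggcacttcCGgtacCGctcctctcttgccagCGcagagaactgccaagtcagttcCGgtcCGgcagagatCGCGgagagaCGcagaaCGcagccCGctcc

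The LINC00862 window holds 3 CG pairs and that of LINC00659 holds 6. LINC00261 has 8, LINC00173 has 18 and LINC00657 has 23. RefSeq gave a window for 141 of the 189 members. The median was 14 CG pairs over these members and also 14 over all 27305 RefSeq windows.

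A pair of members, LINC00461 and LINC00925, are the hosts of miR-9-2 and miR-9-3 (RefSeq symbols MIR9-2HG and MIR9-3HG). Both precursors give the same mature miR-9-5p, which a further locus, MIR9-1, also encodes. It is shown with its seed (bases 2 to 8) in capitals because these hosts differed in the direction of their values.
hsa-miR-9-5p: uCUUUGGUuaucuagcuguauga

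Members were expressed at low level. Per length, their median was 0.357 RPKM over the 12 libraries (range 0.017 to 41.3), against 4.96 for the 14812 tested protein-coding genes. Of the 189 members 55 reached 1 RPKM, 14 reached 5 RPKM and 109 stayed under 0.5 RPKM. LINC00657 alone took 24.6% of all member counts, and the 10 members with most counts took 51.9%. Members were matched to RefSeq by identifier or symbol, older symbols included. The entries matched were long non-coding RNA for 169 members, protein-coding for 16 and pseudogenes for 2, and 53 carried another symbol. Some of the 53 were renamed, such as LINC00152 to CYTOR, LINC00116 to MTLN and LINC00998 to SMIM30. Others matched a different gene, such as LINC00610 to COMMD9, LINC00341 to SYNE3 and LINC00856 to LINC00595, so these numbers are approximate. On hg19, 99 members overlapped another gene of the table and 90 overlapped none. No source used here states a strand setting for the counting, so reads of overlapping genes cannot be told apart.

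More LINC-named genes had a count, and the summed level of members was slightly higher, in both groups that received chaetocin. Between 276 and 301 of the 614 LINC-named genes had at least 1 count in a chaetocin library and between 291 and 324 in a combination library. The numbers were 219 to 234 in vehicle and 215 to 222 with MLN8237, and the ranges with and without chaetocin did not overlap. Chaetocin libraries held 56213168 to 63747510 counts in all and vehicle libraries 49439795 to 57539126, and the part of depth in this was not tested. The same number was not taken over all genes of the table, so a rise particular to LINC-named genes is not shown. The median log2 fold change of all tested genes under 0.5 CPM was 0.39 with chaetocin and 0.57 with both. Summed over members, the level was 847 ± 6.65 CPM in vehicle, 938 ± 9.51 with chaetocin, 856 ± 34.1 with MLN8237 and 966 ± 22.6 with both (SD, n = 3). Without LINC00657 the sums were 641 ± 11.4, 693 ± 22.3, 668 ± 49.8 and 723 ± 57.2 CPM in the same order. There the MLN8237 library numbered 3, at 726 CPM, exceeded every chaetocin library.

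With chaetocin alone 49 of the 180 tested members rose and 10 fell (27.2% and 5.56%; edgeR quasi-likelihood test, Benjamini-Hochberg adjusted p under 0.05 over all 22831 tested genes). Over all tested genes 12.6% were called higher and 11.9% lower. The median log2 fold change was 0.37 over the members and 0.01 over all tested genes. Of the members called, 37 rose and 4 fell by more than 2-fold, and the share of all tested genes that did so was not counted. In 84 members all 3 chaetocin libraries lay above all 3 vehicle libraries and in 22 all lay below, while 24.2% and 23.9% of all tested genes were so separated. Without the 3 treated libraries numbered 3, 54 of 178 tested members were called higher and 13 lower. Leaving out chaetocin replicate 2 or chaetocin replicate 3 gave 39 calls in place of 59, 33 of them higher in each case. With either left out 184 members were tested. Shares of all tested genes are not given for these fits, so a shift particular to members is not shown.

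The choice of members favours genes that are low in vehicle, so counts were also taken by vehicle level. Of the 49 members called higher 16 had under 15 vehicle counts. Among the 157 tested members with at least 15 vehicle counts, 33 were called higher and 10 lower with chaetocin, and of all genes with such vehicle counts 10.6% and 12.5%. Their median log2 fold change was 0.25, against -0.01 for all genes. By mean level over the 12 libraries, 22 of 63 members under 0.5 CPM were called higher and 1 lower, against 14.8% and 1.58% of all tested genes at that level. From 0.5 to 2 CPM the numbers were 16 and 3 of 60, against 16.2% and 7.09% of all genes. From 2 to 10 CPM they were 9 and 4 of 33, against 13% and 13.8%, and at 10 CPM or more 2 and 2 of 24. The abundant members thus had as many calls in each direction, and of all tested genes at 10 CPM or more 10.3% were called higher and 17.2% lower.

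**Figure D1:**
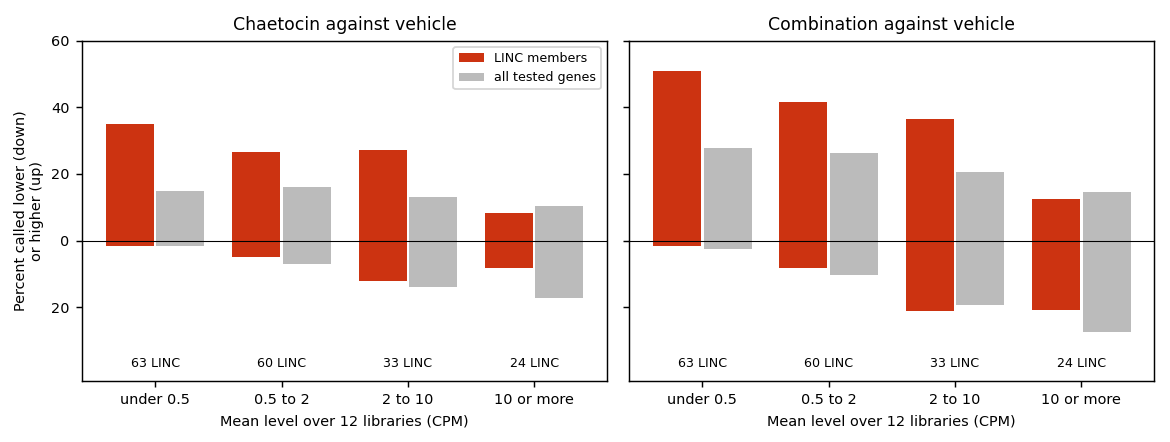
Share of LINC members (red) and of all tested genes (grey) called higher (bars up) or lower (bars down) at an adjusted p under 0.05, by mean level over the 12 libraries in CPM, for chaetocin (left) and the combination (right) against vehicle. The number of members in each class stands under the bars. With chaetocin 34.9% of members under 0.5 CPM were called higher, and 8.33% of those at 10 CPM or more.

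Among risers that averaged 0.5 CPM or more and did not overlap vehicle, the 10 that changed most were LINC00862, LINC00880, LINC00525, LINC00659, LINC00184, LINC00336, LINC00460, LINC01152, LINC00887 and LINC00240. Their log2 fold changes ran from 1.53 to 2.73.

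LINC00862 (chromosome 1, 200311672 to 200343482, hg19) overlaps no other gene of the table. Its level was 0.252, 0.146 and 0.197 CPM in vehicle, 1.93, 1.07 and 0.953 CPM with chaetocin, 0.312, 0.103 and 0.198 CPM with MLN8237, and 1.56, 1.28 and 1.99 CPM with both. Every library with chaetocin lay above every library without it. The log2 fold change was 2.73 ± 0.399 (SE, edgeR adjusted p = 0.000434) with chaetocin and 3.02 ± 0.397 (adjusted p = 9.6e-05) with both.

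LINC00659 (chromosome 20, 61405480 to 61406764), whose window is shown above, had 0.0629, 0.0912 and 0.197 CPM in vehicle and 0.937, 0.472 and 0.537 CPM with chaetocin. The combination libraries had 2.01, 1.22 and 1.12 CPM and those with MLN8237 0.0551, 0.0413 and 0.263 CPM. The combination libraries were the highest of all 12. The log2 fold change was 2.42 ± 0.568 with chaetocin (adjusted p = 0.00777) and 3.59 ± 0.552 with both (adjusted p = 0.000286). The difference between those groups, 1.17 ± 0.449, did not pass (unadjusted p = 0.0223, adjusted p = 0.346).

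LINC00184 (chromosome 1, 234765057 to 234770526) stood at 0.273, 0.219 and 0.25 CPM in vehicle, 1.3, 1.07 and 1.56 CPM with chaetocin, and 2.02, 1.1 and 2.31 CPM with both. Its MLN8237 libraries, at 0.368, 0.413 and 0.417 CPM, also lay above vehicle, but that difference did not pass (adjusted p = 0.516). It rose by a log2 fold change of 2.4 ± 0.311 with chaetocin (adjusted p = 0.000192) and 2.87 ± 0.309 with both (adjusted p = 2.52e-05).

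LINC00460 (chromosome 13, 107028911 to 107030565) is an RNA often reported as raised in carcinomas. It measured 0.252, 0.146 and 0.179 CPM in vehicle, 0.608, 0.808 and 1.07 CPM with chaetocin, 0.221, 0.124 and 0.593 CPM with MLN8237 and 1.17, 0.857 and 1.97 CPM with both. The MLN8237 library numbered 3 came close to the lowest chaetocin library, and the remaining MLN8237 libraries were within the vehicle range or below it. The log2 fold change was 2.11 ± 0.51 with chaetocin (adjusted p = 0.00921) and 2.79 ± 0.503 with both (adjusted p = 0.00085).

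LINC00887 (chromosome 3, 194014254 to 194030592) had 0.713, 0.511 and 0.393 CPM in vehicle, 1.41, 1.45 and 2.03 CPM with chaetocin and 3.11, 1.54 and 3.47 CPM with both. All chaetocin libraries were above vehicle, and combination replicate 2 stayed among the chaetocin libraries. It rose by 1.6 ± 0.346 on the log2 scale with chaetocin (adjusted p = 0.00496) and 2.33 ± 0.345 with both (adjusted p = 0.000217).

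The other 5 of these members overlap annotated genes. LINC00525 (chromosome 7, 47801074 to 47806370) lies opposite HUS1, a subunit of the DNA damage checkpoint clamp, and measured 0.503, 0.748 and 0.554 CPM in vehicle against 2.48, 3.99 and 3.43 CPM with chaetocin. The log2 fold change was 2.45 ± 0.312 for LINC00525 (adjusted p = 0.000164) and 0.53 ± 0.0862 for HUS1 (adjusted p = 0.000803). LINC00880 rose by 2.54 ± 0.439 (adjusted p = 0.00124) and RP11-6F2.5, on the opposite strand of the same stretch, by 2.52 ± 0.458 (adjusted p = 0.00169), so their reads may be shared. For LINC00336, LINC01152 and LINC00240 the log2 fold changes with chaetocin were 2.13 ± 0.478, 1.92 ± 0.309 and 1.53 ± 0.32, with adjusted p of 0.00601, 0.000805 and 0.00413. LINC00240 has a near-identical stretch elsewhere in the annotation, so its counts are uncertain.

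**Figure D2:**
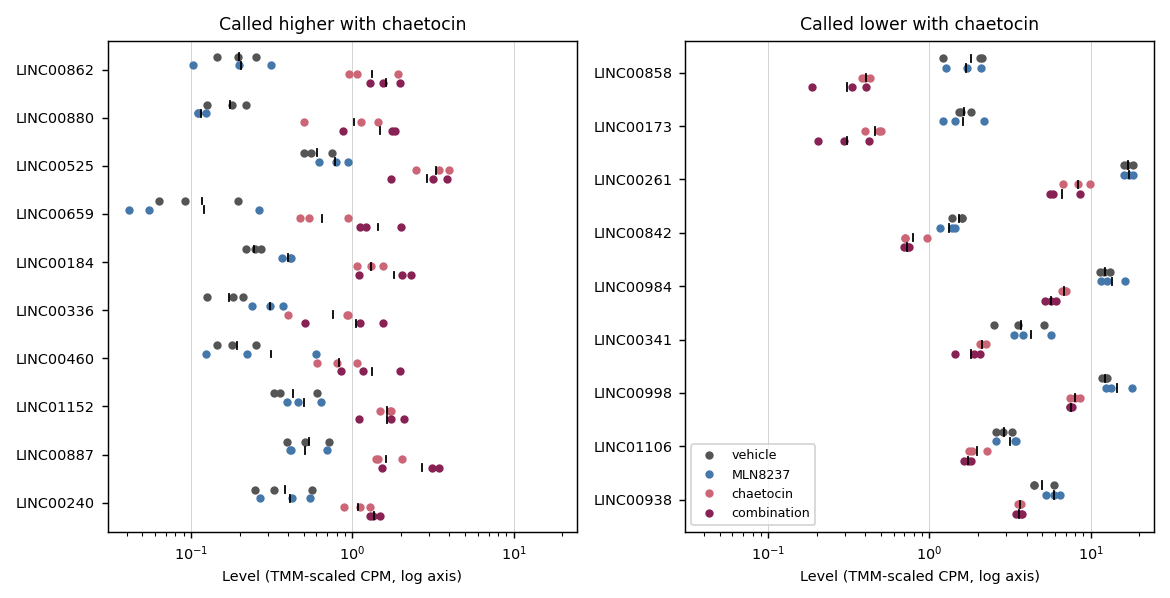
Level of the named members that were called higher (left) or lower (right) with chaetocin, in TMM-scaled CPM on a log axis. Each point is 1 library, coloured by group, and the black bar is the mean of 3. For LINC00862 the chaetocin and combination points lie between 0.953 and 1.99 CPM and the vehicle and MLN8237 points between 0.103 and 0.312 CPM.

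No vehicle library had a count of 5 members, and all 5 were called higher with chaetocin, as were 9 of the 10 tested members with at most 3 vehicle counts. A member with no vehicle count had to be higher elsewhere to be chosen, so these are described without further reading. LINC00520, reported in squamous and breast carcinoma, had 81 chaetocin counts and 145 combination counts, at least 23.6-fold and 42.5-fold above a floor of 3 counts over the vehicle group. Its MLN8237 libraries were also above 0, at 0.0368, 0.062 and 0.0439 CPM (7 counts), which did not pass (adjusted p = 0.516). LINC00856 was at least 13.7-fold and 19.6-fold higher with chaetocin and with both. The bounds were 8.75-fold and 25.2-fold for LINC00243, 7.88-fold and 16.1-fold for LINC01056, and 6.71-fold and 16.7-fold for LINC00207. Floors cover counting error only. In LINC00601 vehicle had 2 counts, chaetocin 77, MLN8237 6 and the combination 85.

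The members that fell were fewer. Beside LINC00610, which lay under 0.5 CPM, they were LINC00858, LINC00173, LINC00261, LINC00842, LINC00984, LINC00341, LINC00998, LINC01106 and LINC00938.

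LINC00858 (chromosome 10, 86039736 to 86054415) fell most. Vehicle libraries had 1.22, 2.13 and 2.07 CPM, chaetocin libraries 0.399, 0.427 and 0.381 CPM, MLN8237 libraries 2.08, 1.71 and 1.27 CPM and combination libraries 0.405, 0.332 and 0.187 CPM. The groups with and without chaetocin did not overlap. The log2 fold change was -2.16 ± 0.31 with chaetocin (adjusted p = 0.000377) and -2.54 ± 0.319 with both (adjusted p = 6.99e-05).

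LINC00173 (chromosome 12, 116971227 to 116974323) behaved alike in level, at 1.57, 1.82 and 1.52 CPM in vehicle, 0.503, 0.396 and 0.485 CPM with chaetocin, 1.45, 2.17 and 1.21 CPM with MLN8237 and 0.296, 0.42 and 0.204 CPM with both. It fell by 1.83 ± 0.285 on the log2 scale with chaetocin (adjusted p = 0.000659) and by 2.41 ± 0.298 with both (adjusted p = 6.15e-05).

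LINC00261 (chromosome 20, 22528309 to 22559280) is an endoderm RNA transcribed next to FOXA2, which encodes a foregut transcription factor. Its level was 16.7, 18.2 and 16.0 CPM in vehicle, 9.89, 8.37 and 6.7 CPM with chaetocin, 17.3, 18.3 and 16.0 CPM with MLN8237, and 5.63, 8.57 and 5.82 CPM with both. MLN8237 libraries covered the vehicle range, and all libraries with chaetocin lay below it. The log2 fold change was -1.03 ± 0.169 with chaetocin (adjusted p = 0.000907) and -1.35 ± 0.171 with both (adjusted p = 7.46e-05). FOXA2, 2363 bases away on the same strand, had log2 fold changes of 0.02 (adjusted p = 0.88) and -0.03 (adjusted p = 0.823). Most of the LINC00261 transcript is annotated a further time under another gene name in GENCODE 29.

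Several fallers are now known to encode small proteins. LINC00984 is INAFM2, which encodes a protein with an InaF motif, and it measured 13.2, 11.4 and 12 CPM in vehicle, 6.98, 6.9 and 6.6 CPM with chaetocin and 5.21, 5.7 and 6.11 CPM with both. Its log2 fold changes were -0.84 ± 0.134 and -1.1 ± 0.135 (adjusted p = 0.000794 and 6.05e-05). LINC00998 is SMIM30, which encodes a small integral membrane protein, at 12.7, 12.5 and 11.8 CPM in vehicle and 8.61, 7.95 and 7.47 CPM with chaetocin. SMIM30 fell by 0.62 ± 0.132 with chaetocin (adjusted p = 0.00436) and by 0.71 ± 0.132 with both (adjusted p = 0.00103). LINC00116 is MTLN, which encodes the mitochondrial inner membrane microprotein mitoregulin, and it had 18.9, 16.6 and 16.0 CPM in vehicle, 11, 13.1 and 14.8 CPM with chaetocin, 17.0, 18.8 and 32.0 CPM with MLN8237 and 7.84, 11.5 and 10.4 CPM with both. MTLN passed with both compounds (log2 fold change -0.79 ± 0.218, adjusted p = 0.0114) and not with chaetocin (-0.4 ± 0.216, adjusted p = 0.205). Without combination replicate 1 the call with both was lost (adjusted p = 0.0654). The change with chaetocin passed without MLN8237 replicate 3 (0.041), without the 3 treated libraries numbered 3 (0.0145) and in a fit of the groups compared only (0.0248). The overlapping RP11-1223D19.1 fell by 0.81 with both (adjusted p = 0.00241), so reads may be shared.

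LINC00493 is SMIM26, which encodes a mitochondrial small protein, and it went the other way in value: 20.7, 17.0 and 17.2 CPM in vehicle and 25.0, 26.4 and 27.8 CPM with chaetocin, with a log2 fold change of 0.53 ± 0.188 that did not pass (adjusted p = 0.0575). It passed in 8 of 20 alternative fits, with adjusted p from 0.00144 without the treated libraries numbered 3 up to 0.0476 under a stricter filter, and 0.0252 with a replicate block. The related pair LINC00086 and LINC00087 (SMIM10L2A and SMIM10L2B) passed in no comparison with vehicle. Of the 16 members whose symbol RefSeq types as protein-coding, 1 was called higher and 4 lower with chaetocin. With both compounds 4 were called higher and 5 lower. Some of the 16 are matches through an older symbol to a coding gene nearby, such as LINC00341 to SYNE3 and LINC00610 to COMMD9, both called lower with chaetocin. Of the 160 tested members typed as long non-coding RNA, 48 were called higher and 6 lower with chaetocin, and 67 and 13 with both.

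The remaining fallers changed less. LINC00842 and LINC00341 had log2 fold changes of -0.94 ± 0.202 (adjusted p = 0.00482) and -0.8 ± 0.262 (adjusted p = 0.0403) with chaetocin. LINC01106 and LINC00938 had -0.56 ± 0.175 (adjusted p = 0.0332) and -0.45 ± 0.146 (adjusted p = 0.0391). LINC01106 is 99.5% identical over 2256 bases to LINC01123, so its counts are uncertain. The calls of LINC00341, LINC01106 and LINC00938 were each lost when 1 library was left out, for example vehicle replicate 3 for LINC00341 (adjusted p = 0.199), vehicle replicate 2 for LINC01106 (0.14) and vehicle replicate 1 for LINC00938 (0.183).

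NORAD (LINC00657) and CYTOR (LINC00152) changed little and did not pass in the main fit. NORAD, a cytoplasmic RNA known for keeping chromosome number stable, had 205, 211 and 202 CPM in vehicle, 269, 252 and 212 CPM with chaetocin, 202, 192 and 170 CPM with MLN8237 and 242, 279 and 210 CPM with both. Chaetocin libraries lay above vehicle and the combination overlapped it, and neither passed (log2 fold changes 0.25 ± 0.118 and 0.24 ± 0.118, adjusted p = 0.153 and 0.125). Without the 3 treated libraries numbered 3 both passed (0.35 in each, adjusted p = 0.00231 and 0.00138). Chaetocin also passed in a fit of the groups compared only (0.0435), and the combination under a stricter filter (0.0484) and without combination replicate 3 (0.0487). In other fits the adjusted p reached 0.412 and 0.457. A stretch of 1036 bases of NORAD is 98.2% identical to LINC02211. CYTOR (LINC00152), an RNA tied to the cytoskeleton and to carcinoma growth, had 18.3, 17.5 and 16.5 CPM in vehicle and 21.5, 24.5 and 21.4 CPM with chaetocin. Its log2 fold change of 0.36 ± 0.145 did not pass (adjusted p = 0.0863). It passed without MLN8237 replicate 3 (adjusted p = 0.00967), without MLN8237 replicate 2 (0.048) and without the 3 treated libraries numbered 3 (0.00644). A fit of the groups compared only also passed (0.00713), and in other fits the adjusted p reached 0.259. A near-identical copy, MIR4435-2HG, makes the CYTOR counts uncertain.

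Of the other members among the 10 highest per length, LINC00665 was called higher with both compounds (0.3 ± 0.103, adjusted p = 0.0361), LINC00839 with chaetocin (0.34 ± 0.108, adjusted p = 0.0339), and LINC00205 lower with both (-0.41 ± 0.148, adjusted p = 0.0428). These 3 small changes were lost in 10, 6 and 8 of 20 alternative fits, with adjusted p up to 0.13 for LINC00665 without vehicle replicate 2, 0.133 for LINC00839 without vehicle replicate 3 and 0.172 for LINC00205 without combination replicate 1. LINC00984, LINC00493 and LINC00116 are described above. LINC00339, LINC00857 and LINC00888, the last a host of small nucleolar RNAs, passed in neither. LINC00511, reported to promote several carcinomas, was at 39.2, 38.9 and 44.8 CPM in vehicle and 29.1, 31.2 and 33.5 CPM with both, where it fell by 0.39 ± 0.0909 (adjusted p = 0.00443). Its chaetocin libraries, at 34.5, 35.2 and 37.4 CPM, lay below vehicle without passing (-0.2 ± 0.0907, adjusted p = 0.134).

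Other members with a reported function or cancer link were mixed. LINC00467 rose by 0.76 ± 0.239 with chaetocin (adjusted p = 0.0335) and 1.28 ± 0.238 with both (adjusted p = 0.00105). LINC00472 passed with both (1.44 ± 0.355, adjusted p = 0.0061), as did LINC00346 (0.99 ± 0.238, adjusted p = 0.00548) and LINC00324 (1.28 ± 0.387, adjusted p = 0.0192). LINC00641 fell with both (-0.54 ± 0.165, adjusted p = 0.0197). The calls of LINC00467 with chaetocin, LINC00324 and LINC00641 were lost in 6, 7 and 3 alternative fits, with adjusted p up to 0.111, 0.0906 and 0.086, among them fits without any 1 vehicle library for LINC00467 and LINC00324. LINC00963 had a log2 fold change of -0.47 ± 0.182 with chaetocin (adjusted p = 0.0803) and -0.42 ± 0.181 with both (adjusted p = 0.0874). It passed in 5 of 20 alternative fits in each comparison, among them the fit with a replicate block (adjusted p = 0.00348 with chaetocin and 0.00325 with both), and its adjusted p reached 0.302 and 0.315 in others. LINC00662, LINC00263 (OLMALINC), LINC00312, LINC00342 and the small nucleolar RNA host LINC00338 (SNHG20) passed with neither. LINC00473, LINC01133, LINC00478, LINC00961, LINC00948 and LINC00675 had from 0 to 46 counts in all and were not members.

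The hosts of miR-9-2 and miR-9-3 differed in direction. LINC00461, the miR-9-2 host, had 2.54, 2.43 and 2.31 CPM in vehicle, 1.67, 1.72 and 1.85 CPM with chaetocin, 1.58, 2.46 and 1.47 CPM with MLN8237 and 1.62, 1.85 and 0.834 CPM with both. It fell with both compounds by 0.75 ± 0.269 on the log2 scale (adjusted p = 0.0411), a call lost in 8 of 20 alternative fits. With chaetocin its log2 fold change of -0.47 did not pass in the main fit. LINC00925, the miR-9-3 host, named here after its values were seen, had 0.608, 1.26 and 1.07 CPM in vehicle, 1.86, 2.29 and 1.71 CPM with chaetocin and 2.57, 1.91 and 2.33 CPM with both. It rose by 0.99 ± 0.263 (adjusted p = 0.0153) and 1.2 ± 0.262 (adjusted p = 0.00293). Mature miR-9-5p was not measured by these libraries.

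With both compounds, 72 of 180 members were called higher (40%) and 18 lower (10%), against 20.1% and 18.3% of all tested genes. The median log2 fold change was 0.45 over members and 0.02 over all tested genes. More than 2-fold changes were found in 60 members called higher and 8 called lower, again without a count over all tested genes to set beside them. All 3 combination libraries lay above vehicle in 88 members and below in 23, and in 27.5% and 27.4% of all tested genes. Among the 157 tested members with at least 15 vehicle counts, 52 were called higher and 18 lower, and of all such genes 17.2% and 19.2%. Without the 3 treated libraries numbered 3, 70 of 178 tested members were called higher and 19 lower, again without the share of all tested genes in that fit. These calls share the vehicle libraries with those of chaetocin alone.

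**Figure D3:**
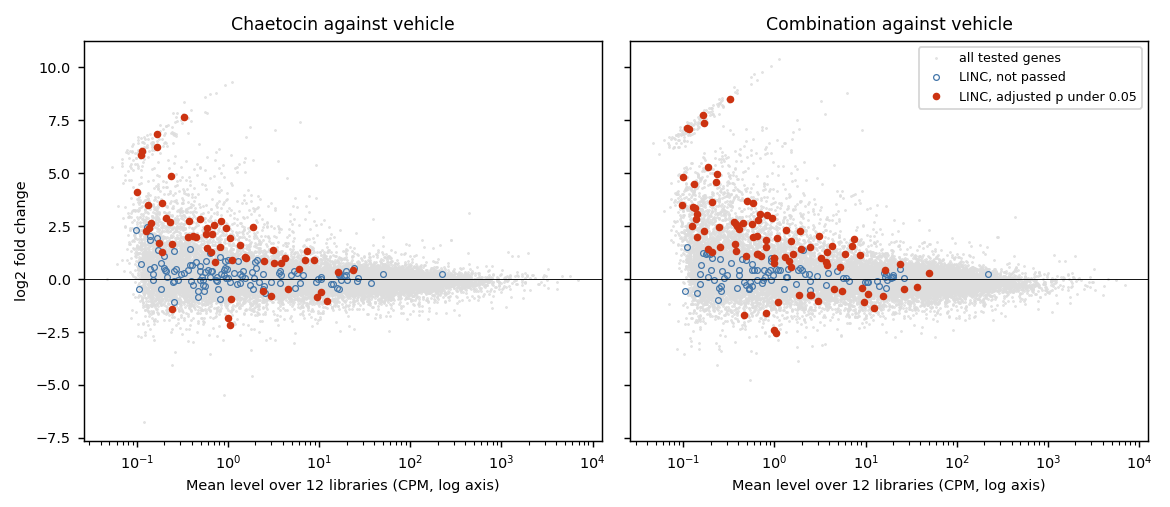
Log2 fold change against mean level over the 12 libraries (CPM, log axis) for chaetocin (left) and the combination (right) against vehicle. Grey points are all 22831 tested genes, filled red points the members called (59 and 90) and open blue points the members that did not pass. The largest values belong to members with few counts in vehicle.

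LINC01002, LINC00528, LINC01139 and LINC01137 were among the members that moved most with both. LINC01002 (chromosome 19, 200460 to 205074) had 1.64, 1.31 and 1.41 CPM in vehicle, 2.4, 4.43 and 4.52 CPM with chaetocin, 1.03, 1.16 and 1.12 CPM with MLN8237 and 6.24, 3.83 and 7.98 CPM with both. It rose by 2.05 ± 0.284 (adjusted p = 0.000143), and the overlapping AC092299.7 rose by 1.81 (adjusted p = 0.000151). LINC00528 rose by 2.03 ± 0.446 with both (adjusted p = 0.00311), and its chaetocin libraries overlapped vehicle. LINC01139 had 1.34, 1.15 and 1.09 CPM in vehicle and 0.327, 0.595 and 0.255 CPM with both, a log2 fold change of -1.6 ± 0.361 (adjusted p = 0.00355). LINC01137 fell by 0.75 ± 0.263 (adjusted p = 0.0374), a call lost without any 1 vehicle library and without combination replicate 1 or 2 (adjusted p up to 0.127).

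MLN8237 alone changed no member at the threshold, and 1 of the 22831 tested genes passed (0.00438%). At an unadjusted p under 0.05 there were 9 of 180 members and 1938 of 22831 genes. DESeq2 and limma-voom also called 0. The median log2 fold change was 0.07 over members and 0 over all tested genes. All 3 MLN8237 libraries lay above vehicle in 10 members and below in 8, against 6.96% and 7.06% of all tested genes.

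Adding MLN8237 to chaetocin gave 0 calls among members and 0 among all genes with edgeR (0.0%). At an unadjusted p under 0.05 there were 25 of 180 members and 2677 of 22831 genes, DESeq2 called 3 and limma-voom 0. Without combination replicate 2, edgeR called 4 of 184 tested members. Shares of all genes called by DESeq2 or without that library are not given. The combination lay above chaetocin in all libraries in 25 members and below in 10, and in 9.54% and 9.15% of all tested genes. The smallest p belonged to LINC00863, LINC01024 and LINC00094.

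LINC00863 (chromosome 10, 89102493 to 89117639) had 3.96, 4.6 and 3.97 CPM in vehicle, 4.34, 4.01 and 4.61 CPM with MLN8237, 5.29, 6.16 and 6.08 CPM with chaetocin, and 10.4, 8.03 and 10 CPM with both. The combination libraries were above all others, with a difference from chaetocin of 0.7 ± 0.135 on the log2 scale (unadjusted p = 0.000176, adjusted p = 0.182). LINC00863 overlaps NUTM2D on the same strand, and with both compounds each rose by 1.18 against vehicle (adjusted p = 0.0163 for NUTM2D), so their reads may be shared. It also has near-identical stretches in 2 other genes, so its counts are uncertain. LINC01024 is MALINC1, a mitosis-associated RNA, with 4.19, 4.71 and 3.54 CPM in vehicle, 4.36, 4.26 and 3.97 CPM with MLN8237, 7.76, 8.2 and 7.19 CPM with chaetocin and 13.9, 9.53 and 13.4 CPM with both. The groups again did not overlap between chaetocin and the combination (0.67 ± 0.153, adjusted p = 0.203). LINC00094, opposite the chromatin reader gene BRD3, had a difference of -0.34 ± 0.0917 (adjusted p = 0.216). With both compounds against vehicle LINC00094 fell by 0.45 and the overlapping BRD3 by 0.62 (adjusted p = 0.0108 for BRD3).

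The combination against MLN8237 gave 72 members higher (40%) and 21 lower (11.7%), against 23.3% and 22.7% of all tested genes. The interaction, by which the log2 change with both departs from the 2 single changes added up, was called in 0 members and in 0.0% of all tested genes. Unadjusted, 21 of 180 members and 3108 of 22831 genes were under 0.05, and DESeq2 and limma-voom called 0. Its smallest p belonged to LINC00504 (0.97 ± 0.284), LINC00863 (0.65 ± 0.193) and LINC00886 (0.52 ± 0.165), each with an adjusted p of 0.362. LINC00886 had 5.56, 5.95 and 6.31 CPM in vehicle, 5.09, 4.92 and 4.7 CPM with MLN8237, 9.89, 11 and 12.2 CPM with chaetocin and 13.8, 11.8 and 13.6 CPM with both. Its MLN8237 libraries were all below vehicle while every library with chaetocin was above it.

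Other classes of non-coding gene, counted by name, moved as follows with chaetocin. Of 469 tested antisense genes 67 were called higher and 36 lower, with a median log2 fold change of 0.1. Of 17 tested small nucleolar RNA hosts 2 were called higher and 0 lower, and of 14 microRNA hosts 6 and 0. The differences between these classes and the LINC members were not tested, and the classes differ in level, with a median of 0.836 CPM for LINC members, 2.3 CPM for antisense genes and 47.7 CPM for small nucleolar RNA hosts.

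Genes beside a member were set beside it to show whether its locus moved. Over 92 pairs of a tested member and a tested gene that overlaps it (71 members), the log2 fold changes with chaetocin had Pearson's r of 0.47 and Spearman's rho of 0.49 across pairs. Overlapping pairs can share reads. Over 151 members and their nearest tested gene within 50 kb that did not overlap them, r was 0.33 and rho 0.28. Where both genes of a pair were members, such as LINC00704 and LINC00705, the pair was entered from each side. Members with no vehicle count were included, such as LINC00856 (log2 fold change 6.87) and LINC00243 (6.24). Of 41 members called higher that had such a neighbour, the neighbour was called higher in 13, lower in 4 and in neither direction in 24. Of 9 members called lower, the neighbour was called higher in 1, lower in 1 and in neither direction in 7. Of all tested genes 12.6% were called higher and 11.9% lower. Genes are not independent replicates and all pairs share the 12 libraries, so no test is given.

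**Figure D4:**
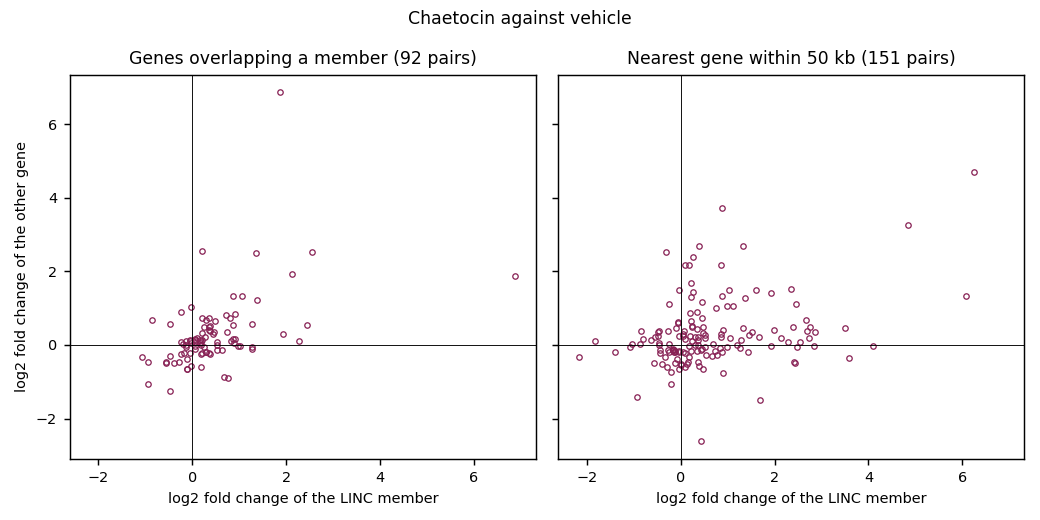
Log2 fold change with chaetocin of each LINC member (horizontal) and of a gene overlapping it (left, 92 pairs) or nearest to it within 50 kb (right, 151 pairs). Points spread along the rising diagonal on the left (r = 0.47) and more loosely on the right (r = 0.33). A pair in which both genes are members can appear from each side.

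The nearest genes of the members described above were of each kind. LRRC15, 45384 bases from LINC00887, rose by 1.48 ± 0.213 (adjusted p = 0.000382). NTSR1, a neurotensin receptor gene 11357 bases from LINC00659, fell by 0.46 ± 0.117 (adjusted p = 0.0115) where LINC00659 rose. ZNF281, the nearest gene to LINC00862, had a log2 fold change of 0.2 ± 0.171 (adjusted p = 0.435). GPRIN2 beside LINC00842 fell by 1.4 ± 0.291 (adjusted p = 0.00387), in the same direction as LINC00842.

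Promoter windows were compared by call. They were matched by symbol, older symbols included, and some belong to another gene nearby: among the 9 of members called lower, that of LINC00610 is the COMMD9 window (21 CG pairs) and that of LINC00341 the SYNE3 window (42). LINC00856 and LINC00595 share 1 window, with 3 CG pairs. The median number of CG pairs was 8 in the 35 windows of members called higher with chaetocin, 22 in the 9 called lower and 16 in the 90 that did not pass. CG content also differed by level. Under 0.5 CPM the medians were 3.5 for the 14 windows of members called higher and 12 for the 27 not passed. From 0.5 to 2 CPM they were 8 for 13 windows and 9 for 30. At 2 CPM or more they were 30 for 8 windows and 25 for 33. The members called higher thus had fewer CG pairs than those not passed under 0.5 CPM and more at 2 CPM or more. With both compounds the medians were 8 for 51 windows called higher, 25 for 15 called lower and 18 for 68 not passed.

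**Figure D5:**
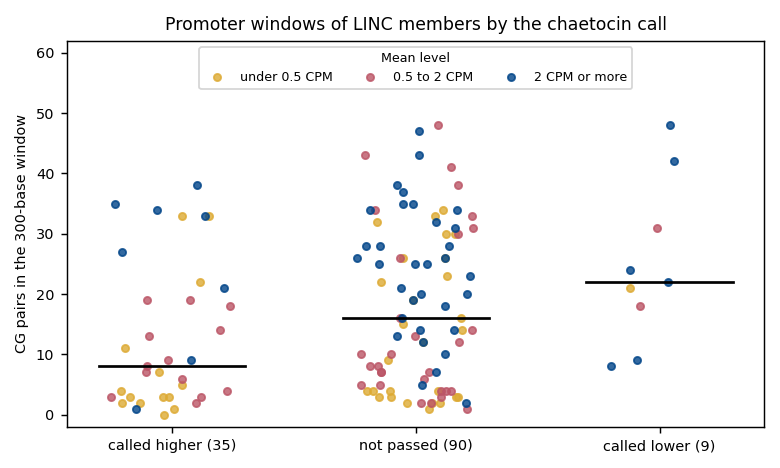
Number of CG pairs in the 300-base RefSeq promoter window of each member, by its call with chaetocin and coloured by mean level. Black lines are medians, at 8 for 35 members called higher, 16 for 90 not passed and 22 for 9 called lower.

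Both strands of each window were searched for the antioxidant response core TGACNNNGC, bound by NRF2, and for TGANTCA, taken as the AP-1 element. Any middle base was accepted in TGANTCA, and a stretch can match both. TGACNNNGC was found in 23.4% of the 141 member windows and in 13.6% of all RefSeq windows. It was in 17.1% of windows of members called higher with chaetocin, in 4 of the 9 called lower and in 23.3% of those not passed. The 4 are those of LINC00938, LINC00984 (INAFM2), LINC00261 and LINC00610, the last being the COMMD9 window. TGANTCA was in 12.1% of member windows and 7.76% of all. With chaetocin it was in 8 of the 35 windows called higher, 0 of the 9 called lower and 8.89% of those not passed. With both compounds it was in 15.7% of windows called higher, 0 of 15 called lower and 11.8% of those not passed. For TGACNNNGC these shares with both were 23.5%, 26.7% and 22.1%. Of the windows shown above, those of LINC00261 and LINC00657 hold TGACNNNGC and none holds TGANTCA. A match is a description and not a site of binding.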

How the data were processed

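RNA from 12 PANC-1 libraries in 4 groups was sequenced. The submitters' processing notes name CASAVA 1.9, TopHat 12.0.6 (as listed there), HTSeq and hg19, without roles. Per the file headers, the authors deposited raw counts and RPKM per gene and library, with hg19 positions and a length. Their RPKM was not used, and RPKM was recomputed here from counts, TMM scaling and that length.

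Counts were fitted with edgeR 4.0.16 in R 4.3.3: default expression filter by group (22831 genes), TMM, 4 group means, robust quasi-likelihood F test, Benjamini-Hochberg adjustment over all tested genes, calls at an adjusted p under 0.05. Errors are the SE of the fit or the SD of 3 libraries. The fit was checked on simulated counts. The pass rule of that check was eased after its first run, in which too few of the smaller simulated drops were called, and the fit was left as it was.

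Members and lists were chosen with earlier results of these data known. For each treatment set against vehicle, up to 10 members per direction were named by size of change among those that passed, averaged 0.5 CPM or more and did not overlap vehicle. Where no member passed a comparison, the 3 with the smallest p were named. The 10 highest by RPKM, lists of known function, small-RNA hosts and small-protein genes, and genes next to the limit of 60 counts were added. Other members named were chosen after their values were seen. Sequences are from RefSeq (GRCh38.p14) and GENCODE 29, which matched 181 members by identifier. Where a gene had several promoter windows the first listed was used. Alternatives were DESeq2 1.42.0, limma-voom (limma 3.58.1), other scaling, filters and member limits, a replicate block, and leaving out libraries.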

Additional observations from a re-analysis of the deposited data

How the results depend on the processing

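Calls below are numbers of members called by edgeR at an adjusted p under 0.05. Shares of all tested genes are not given for the alternative fits, so these numbers do not set members apart from other genes. The 59 calls with chaetocin were among 180 tested members. They became 28 of 82 under a stricter filter (1 CPM in 6 libraries) and 29 of 85 among members overlapping no other gene. In both cases fewer members were tested, so a smaller number of calls is not a smaller share. When 1 library was left out, the calls were 39 to 77, the 77 without MLN8237 replicate 3. The 90 calls with both became 42 and 43, and 71 to 98. The 93 calls of the combination against MLN8237 became 44 and 43. The 0 calls of the combination against chaetocin became 3 with DESeq2 and 0 to 4 when 1 library was left out. The median log2 fold change with chaetocin, 0.37, was 0.39 with DESeq2, 0.31 in a fit of the groups compared only, 0.21 under the stricter filter, 0.32 without the 3 treated libraries numbered 3, 0.24 for members of at least 240 counts, 0.39 for members overlapping no other gene and 0.31 to 0.39 when 1 library was left out. The median with MLN8237 was 0.07 and became 0 without the 3 treated libraries numbered 3, and ranged from -0.00 (without MLN8237 replicate 3) to 0.09 when 1 library was left out. The cause of these shifts was not tested beyond the number of members tested.

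Same-numbered libraries of vehicle and a treated group had correlations of their deviations from -0.153 to 0.139, those of chaetocin and the combination from -0.007 to 0.462 and those of MLN8237 and the combination from 0.093 to 0.436, so none of these comparisons had all 3 pairs over 0.1. Chaetocin and MLN8237 did (0.119 to 0.441) but were not compared with each other and meet only in the interaction, beside vehicle. Treated libraries numbered 3 correlated with each other at 0.436 to 0.462. Combination replicate 3 had -0.417 to -0.116 with the differently numbered libraries of chaetocin and MLN8237. The treated libraries numbered 3 thus deviated alike, and the main fit holds no term for this. With a replicate block 68 of 180 members were called with chaetocin, 96 with both and 101 with the combination against MLN8237. With MLN8237, the combination against chaetocin and the interaction 0 were called. Shares of all tested genes are not given for that fit.

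Of 2351 values of the 60 named members over 20 alternative settings, 2185 kept direction and side of the threshold, 86 lost and 68 gained a call, and 12 changed sign. Those 12 belonged to members not called. Over all alternative fits, LINC00087 ranged from -0.13 to 0.08 with both and LINC00263 from -0.06 to 0.08 with chaetocin. LINC00342 ranged from -0.87 to 0.6 with chaetocin and from -0.62 to 0.49 with both. With both compounds LINC00857 ranged from -0.02 to 0.15 and LINC00888 from -0.00 to 0.19. Without the treated libraries numbered 3, LINC00857 was at -0.00. Members with few counts have wide errors, and a change in one that did not pass may be below what 3 libraries can show.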

Other observations

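LINC00342 varied more by library than by treatment. It had 1.87, 2.55 and 6.87 CPM in vehicle, 2.52, 3.37 and 7.99 CPM with MLN8237, 2.07, 2.07 and 5.98 CPM with chaetocin and 2.51, 2.4 and 4.51 CPM with both, so the library numbered 3 was the highest in each of the 4 groups. LINC00342 has a near-identical stretch elsewhere in the annotation, as has LINC00265, so counts of both are uncertain. LINC00265, chosen after its values were seen, had the most CPM of the members whose log2 fold change with chaetocin exceeded 1. It had 3.25, 4.25 and 3.65 CPM in vehicle, 4.14, 3.35 and 1.23 CPM with MLN8237, 9.7, 10.1 and 8.11 CPM with chaetocin and 17.8, 10.9 and 12.8 CPM with both, and rose by 1.32 ± 0.313 with chaetocin and 1.9 ± 0.316 with both (edgeR adjusted p = 0.0082 and 0.000496). LINC00704 (MANCR), a mitosis-associated RNA also chosen after its values were seen, rose by 0.81 ± 0.255 and 1.11 ± 0.253 (adjusted p = 0.035 and 0.00395).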
